A study of Mus musculus with 31 samples.

Results

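The genes described here make, lengthen and desaturate fatty acids: Acaca, Fasn, Elovl6, Elovl5, Scd1, Scd2, Fads1, Fads2 and the transcription factor gene Srebf1. Their array rows were found by name, as the rows that carry one of these symbols, and no measured value entered that rule. The list of genes itself was drawn up with earlier results of these data known. All 9 listed genes were found, on 13 of the 55681 probes, and all 9 passed the filter on dim probes and are among the 25205 genes tested. RNA came from the whole brains of 31 female C57BL/6 mice aged 6 weeks, 1 single-colour array per mouse, in a series whose title names acute lung injury. Every mouse was anaesthetised with xylazine and ketamine and received 200 µl through the tail vein. In 14 control mice this was physiological serum, and in 17 mice it was oleic acid, dosed by body weight at 1.2 µl/g. Brains were collected 1, 1.5, 3, 4, 18 or 24 h later. There were 12 groups. At 1 h and 1.5 h each treatment had 3 mice, at 3 h, 4 h and 24 h serum had 2 and oleic acid 3, and at 18 h each had 2. The anaesthetic, the injection and the volume were common to both treatments, and no group without an injection was analysed here. Nothing in the labels says that a brain was pooled or divided.

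Acetyl-CoA carboxylase, encoded by Acaca, makes malonyl-CoA, and fatty acid synthase, encoded by Fasn, joins malonyl units into palmitate. The elongases add carbon units to that chain, and the stearoyl-CoA desaturases place the double bond that turns stearate into oleate, the fatty acid injected here. FADS1 and FADS2 are the front-end desaturases of polyunsaturated fatty acids, and SREBP-1, the product of Srebf1, is a transcription factor that drives many of these genes in liver. In brain, oligodendrocytes use this machinery to build myelin, and Scd2 is the main stearoyl-CoA desaturase gene of mouse brain.

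Levels below are log2 processed signals minus the 75th percentile of the same array, so a difference of 1 is a doubling. Levels of different probes are not set against each other, and ± after a difference is the standard error of limma's fit. In whole-brain RNA, fewer cells of a type and less RNA per cell cannot be told apart. The neuron, oligodendrocyte, astrocyte, microglia, endothelial and choroid plexus markers listed were above background on 31 of 31 arrays, as the tissue label states. Gabra6, a receptor subunit of cerebellar granule cells, lay under -5 on 4 arrays: serum 1 h replicate 1, oleic acid 1.5 h replicate 2, serum 4 h replicate 2 and oleic acid 4 h replicate 3. Prl, a pituitary hormone gene, lay over 5 on 3 arrays: serum 24 h replicate 2 and oleic acid 24 h replicates 1 and 3. Of the adipocyte markers, Adipoq was above background on 1 array and Cidec on 0. The lung markers Sftpc and Scgb1a1 were above background on 31 arrays, Sftpc between -1.65 and 3.65, and the liver marker Alb on 29 arrays, between -6.09 and 2.78. Arrays correlated with one another across genes at 0.968 to 0.995. They lay on 5 slides: slide 1 held every 1 h array, slide 4 every 4 h array and the serum 18 h arrays, and slide 5 the oleic acid 18 h arrays. Time and slide are therefore partly confounded, and at 18 h treatment and slide cannot be told apart.

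The promoters of Elovl6, Fasn and Srebf1 are shown because these were the 3 members whose level differed between times in the fit across all genes. Each line gives the 250 bases before a RefSeq transcript start on GRCm38.p6, 5′ to 3′ on the gene's strand, with CCAAT boxes in capitals (CCAAT, or ATTGG where the box lies on the other strand). The Elovl6 bases are chr3:129532136-129532385 on the plus strand, the Fasn bases chr11:120824548-120824797 on the minus strand, and the Srebf1 bases chr11:60222582-60222831 and chr11:60210472-60210721, both on the minus strand, before its starts 1 and 3.
Elovl6: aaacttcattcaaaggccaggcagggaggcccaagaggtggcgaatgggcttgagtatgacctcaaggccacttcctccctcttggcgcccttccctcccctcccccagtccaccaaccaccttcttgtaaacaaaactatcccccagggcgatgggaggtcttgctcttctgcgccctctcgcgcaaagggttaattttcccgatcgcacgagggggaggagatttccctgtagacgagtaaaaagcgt
Fasn: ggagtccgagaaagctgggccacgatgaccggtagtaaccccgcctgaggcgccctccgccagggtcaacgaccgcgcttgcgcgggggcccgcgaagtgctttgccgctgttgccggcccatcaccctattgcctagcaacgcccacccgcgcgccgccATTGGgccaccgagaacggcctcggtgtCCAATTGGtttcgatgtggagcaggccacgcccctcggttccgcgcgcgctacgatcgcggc
Srebf1 start 1: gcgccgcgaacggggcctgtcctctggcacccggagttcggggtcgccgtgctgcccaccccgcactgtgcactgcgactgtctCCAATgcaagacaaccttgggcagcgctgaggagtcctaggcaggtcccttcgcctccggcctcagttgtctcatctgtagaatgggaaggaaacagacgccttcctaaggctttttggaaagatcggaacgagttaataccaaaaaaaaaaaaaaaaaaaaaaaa
Srebf1 start 3: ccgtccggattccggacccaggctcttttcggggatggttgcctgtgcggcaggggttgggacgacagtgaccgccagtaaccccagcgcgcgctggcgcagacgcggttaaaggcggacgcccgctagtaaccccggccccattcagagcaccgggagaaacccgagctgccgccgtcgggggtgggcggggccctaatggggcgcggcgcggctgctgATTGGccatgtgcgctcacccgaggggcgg

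The RefSeq table held 8 promoters of 6 members: Acaca, Fasn, Elovl5, Elovl6, Fads2 and 3 starts of Srebf1. The windows searched held the 250 bases before a start and a shorter stretch after it, which the lines above do not print. The CCAAT box, searched on both strands, was found in 4 of the 8 windows and in 37.4% of 32851 windows of the same length in the table. In the Fasn window it stood at -90, -62 and -59 from the start, and the last pair overlap in the run CCAATTGG. It stood at -166 before Srebf1 start 1 and at -30 before start 3, and the Elovl6 window held none. The window of Srebf1 start 2, not printed above, held none either. The Elovl5 window held it at -71 and -17, and held the E-box CACGTG at -161, which was found in 7.15% of all windows and in no other member's. The sterol regulatory element core, searched as TCACNCCA on both strands, was found in 0 of the 8 windows and in 4.36% of all windows. A match to these letters is a description of the window and not of binding.

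None of the 9 genes passed the test between oleic acid and serum mice at any of the 6 times. Over 54 gene and time combinations the difference was at most 0.37 in size (1.29-fold), 24 were positive and 30 negative, and the lowest adjusted p was 0.671 (limma, Benjamini-Hochberg over 25205 genes). The number of members that passed was 0 of 9 at each time. Of all genes tested, 0% passed at 1, 1.5, 3, 18 and 24 h, and 0.00397% passed at 4 h. At an unadjusted p under 0.05 the counts were 1 of 9 members at 1 h (4.84% of all genes), 1 at 1.5 h (5.29%), 1 at 3 h (4.85%), and 0 at 4 h (3.04%), 18 h (7.28%) and 24 h (6.59%). The mean difference over the 6 times lay between -0.05 and 0.07 for the 9 genes, with the widest 95% interval from -0.20 to 0.21 for Scd1, and 0 of 9 passed, against 0% of all genes (0 of 9 members and 4.56% of all genes had an unadjusted p under 0.05). A difference that varied with time was found for 0 of 9 members, against 0% of all genes; at an unadjusted p under 0.05 there was 1 member, Elovl6, against 5.45%. With 2 or 3 mice a group the intervals at single times were wide, from -0.67 to 0.93 at their outermost, and differences up to their bounds were not excluded. The intervals excluded 0 for Fads2 at 1 h and for Elovl6 at 1.5 h and 3 h, and these differences did not pass after adjustment.

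**Figure D1:**
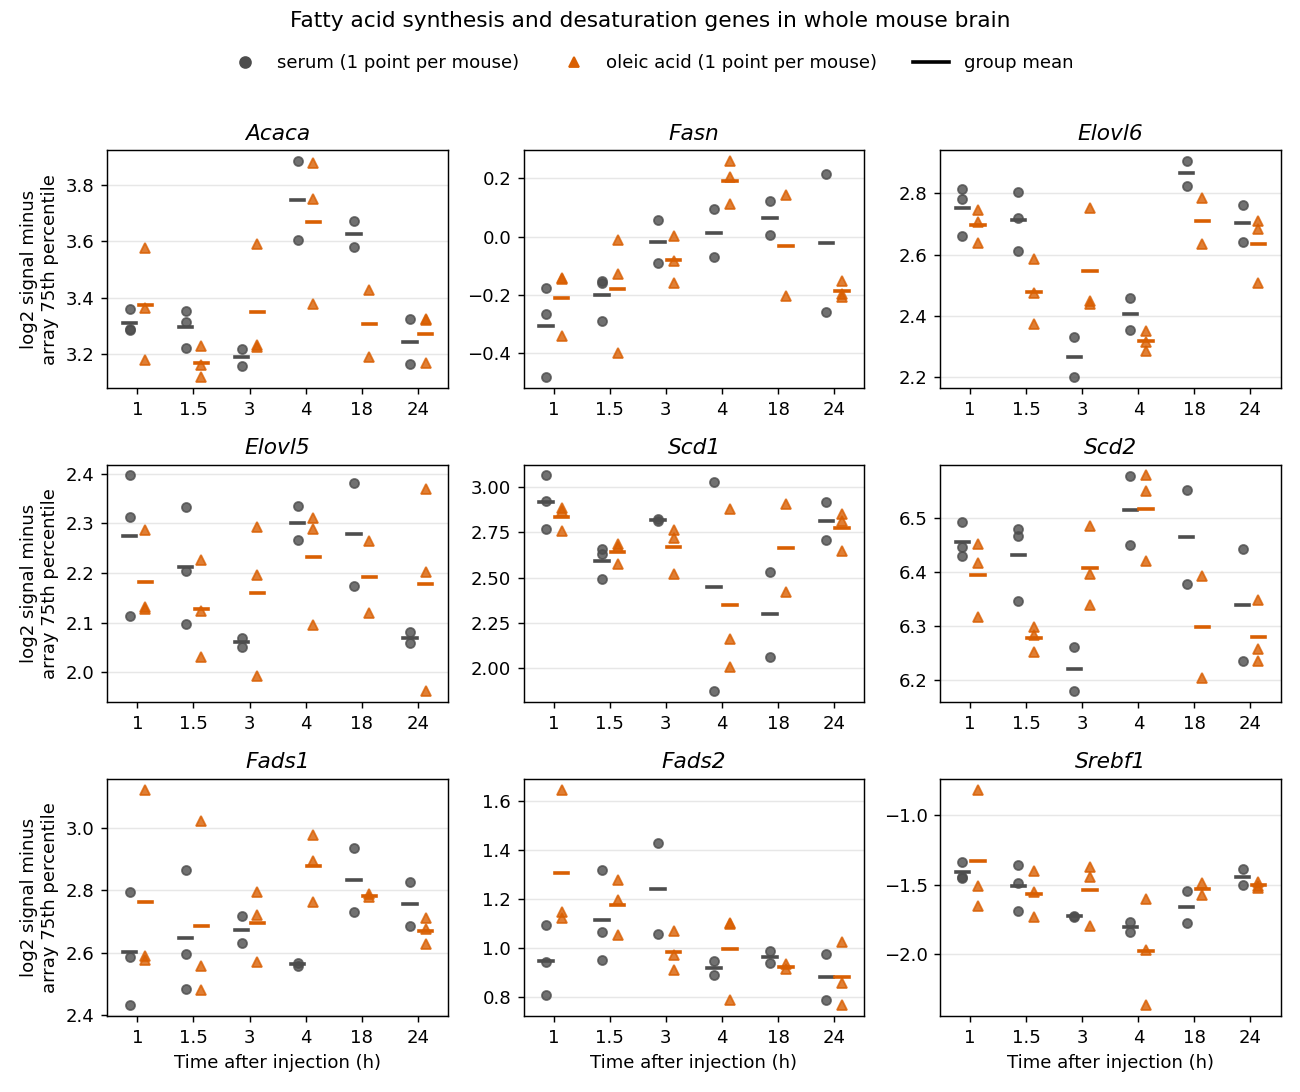
Each panel shows 1 gene: log2 signal minus the array's 75th percentile (vertical, scale set per gene) against hours after injection, 1 point per mouse, grey circles for serum, orange triangles for oleic acid, bars for group means. Serum and oleic acid points intermix at most times, while the Elovl6 points at 4 h, from 2.28 to 2.46, lie below all of those at 1 h, from 2.64 to 2.81.

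Groups that did not overlap were found for 13 of the 54 combinations, 6 with oleic acid higher and 7 lower. At 1 h this was Fads2 alone, higher (9.9% of all genes did not overlap there). At 1.5 h it was Scd2 and Elovl6, both lower (10.6%). At 3 h Scd2, Acaca and Elovl6 lay higher and Scd1 lower (17.7%). At 4 h Fads1 and Fasn lay higher and Elovl6 lower (18.1%). At 18 h, with 2 mice a group, Fads2, Acaca and Elovl6 lay lower (52.5%), and at 24 h there was none (28.9%). The median difference of the 9 genes was 0.06, -0.05, 0.10, -0.07, -0.09 and -0.06 from 1 h to 24 h, beside medians over all genes of 0.0019, -0.01, 0.02, 0.0078, -0.04 and -0.04.

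**Figure D2:**
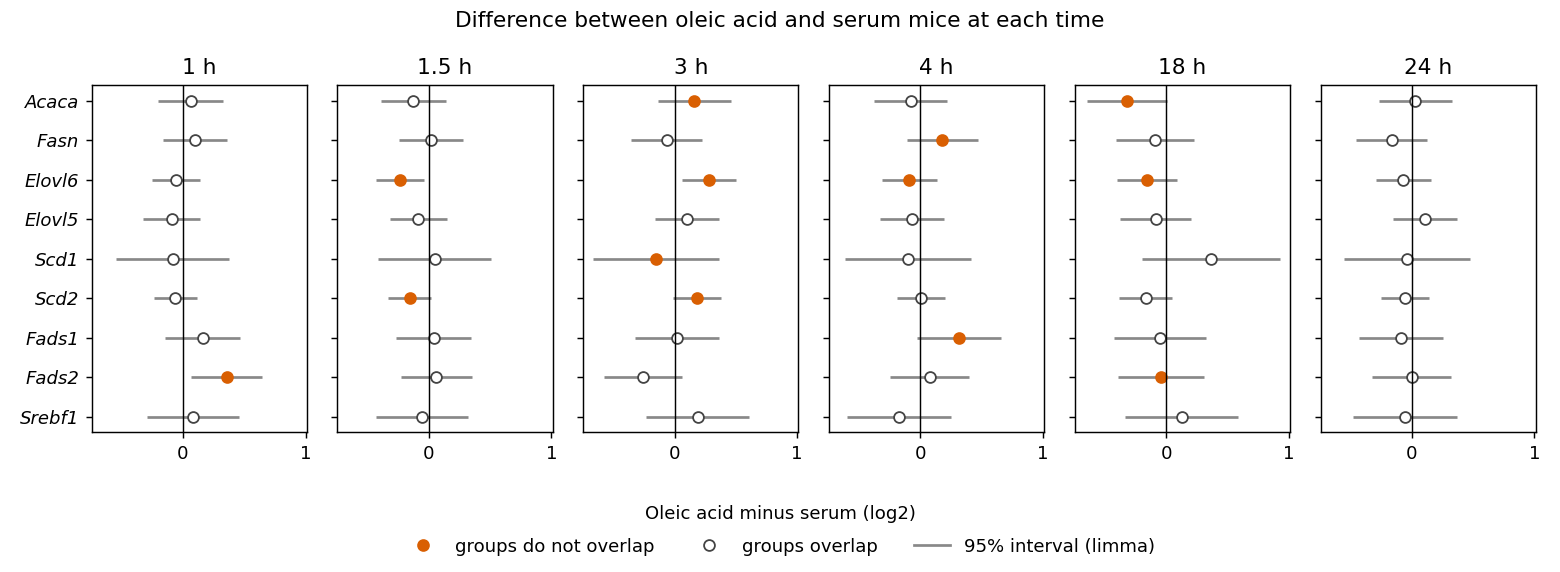
Oleic acid minus serum difference (log2, horizontal) of each of the 9 genes at each time, 1 panel per time. Points are limma estimates, filled where the groups did not overlap (13 of 54), and lines are 95% intervals. The interval excludes 0 for Fads2 at 1 h and for Elovl6 at 1.5 h (below 0) and 3 h (above 0), and for no other point.

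Elovl6, the elongase that lengthens palmitate toward stearate, varied most clearly with time. In serum mice its level was 2.66, 2.81 and 2.78 at 1 h, 2.72, 2.80 and 2.61 at 1.5 h, 2.20 and 2.33 at 3 h, 2.35 and 2.46 at 4 h, 2.83 and 2.91 at 18 h, and 2.64 and 2.76 at 24 h. Each serum mouse at 3 h and 4 h lay below every serum mouse at the other times. In oleic acid mice it was 2.74, 2.64 and 2.71 at 1 h, 2.47, 2.37 and 2.59 at 1.5 h, 2.45, 2.44 and 2.75 at 3 h, 2.35, 2.32 and 2.28 at 4 h, 2.64 and 2.79 at 18 h, and 2.71, 2.51 and 2.68 at 24 h. The lowest oleic acid levels were the 3 at 4 h, and replicate 3 at 3 h lay apart from its group mates, among the 1 h and 18 h mice. With both treatments weighted equally, Elovl6 fell by 0.28 ± 0.05 (1.21-fold) from 1 and 1.5 h to 3 and 4 h, limma adjusted p = 0.00184. It rose by 0.34 ± 0.05 (1.27-fold) from there to 18 and 24 h, limma adjusted p = 0.000221. The levels at 18 and 24 h did not pass against 1 and 1.5 h, with a difference of 0.07 (95% interval -0.04 to 0.18). Within serum mice alone, time passed for Elovl6 (limma F-test, adjusted p = 0.0136), and within oleic acid mice it did not (adjusted p = 0.0602). Whether the time course differed between treatments is the interaction above, which did not pass (limma adjusted p = 0.837).

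Elovl6 was the only member with a call in more than 1 of these comparisons, and the arrays' slides bear on it. Between 3 and 4 h and 1 and 1.5 h, 3 of 9 members passed (Elovl6 and Srebf1 lower, Fasn higher), against 9.49% of all genes (6.72% higher and 2.77% lower). At an unadjusted p under 0.05 there were 4 of 9 members, against 26.7%. Between 18 and 24 h and 3 and 4 h, 1 of 9 passed, higher, against 12.7% (4.96% higher and 7.71% lower), and 2 of 9 had an unadjusted p under 0.05, against 27.3%. Between 18 and 24 h and 1 and 1.5 h, 0 of 9 passed, against 11.2% (6.23% higher and 5% lower; 2 of 9 members and 26.1% of all genes had an unadjusted p under 0.05). Time within serum mice passed for 1 of 9 members, against 10.5% (2 of 9 and 34.6% at an unadjusted p under 0.05), and within oleic acid mice for 0 of 9, against 7.06% (4 of 9 and 26.3% at an unadjusted p under 0.05). Of all genes called between 3 and 4 h and 1 and 1.5 h, 70.8% were higher, and 55.6% when arrays were scaled to their median. Leaving out any single array kept both Elovl6 calls, with adjusted p from 0.000637 to 0.00695 in 22 fits for the fall and from 5.57e-05 to 0.00126 in 19 fits for the rise. With slide as a fixed block the fall was -0.36 (adjusted p = 0.867) and the rise 0.53 (adjusted p = 0.139), larger in size and no longer past the threshold. With slide as a random block they were -0.28 (adjusted p = 0.0815) and 0.36 (adjusted p = 0.00422).

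Single slides that held more than 1 time gave the following Elovl6 values. On slide 4 the mean was 2.35 ± 0.07 (SD, n = 5) at 4 h and 2.87 ± 0.06 (SD, n = 2) for serum mice at 18 h, with 2.75 for the lone 3 h array there. On slide 3 it was 2.48 ± 0.15 (SD, n = 2) at 1.5 h and 2.35 ± 0.12 (SD, n = 4) at 3 h, and these ranges overlapped. On slide 1 it was 2.72 ± 0.07 (SD, n = 6) at 1 h and 2.76 ± 0.06 (SD, n = 2) at 1.5 h. Serum mice at 4 h and 18 h shared slide 4, and there Elovl6 was 0.46 ± 0.12 higher at 18 h (limma adjusted p = 0.0665, and 0.040 with slide as a fixed block and 0.0442 as a random block). In that comparison 0 of 9 members passed, against 0.928% of all genes, and 1 of 9 members had an unadjusted p under 0.05, against 10.6%. The 2 serum groups did not overlap for Elovl6 and Fads1, both higher at 18 h, against 38.9% of all genes.

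The treatment difference of Elovl6 had opposite signs at neighbouring times, at sizes that did not pass. It was -0.23 ± 0.10 at 1.5 h (95% interval -0.43 to -0.04), 0.28 ± 0.11 at 3 h (0.06 to 0.51) and -0.09 ± 0.11 at 4 h, with limma adjusted p of 0.88, 0.938 and 0.996. At 3 h the third oleic acid mouse was the only 3 h array on slide 4, and within slide 3, with 2 mice a group, the difference was 0.18. At 1.5 h only slide 2 held both treatments, 1 mouse each, and the difference there was -0.14. In the order of the 12 group means, from serum 18 h at 2.87 to serum 3 h at 2.27, 9 of 11 neighbouring groups overlapped. The exceptions were serum 18 h above serum 1 h, and serum 4 h above oleic acid 4 h.

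**Figure D3:**
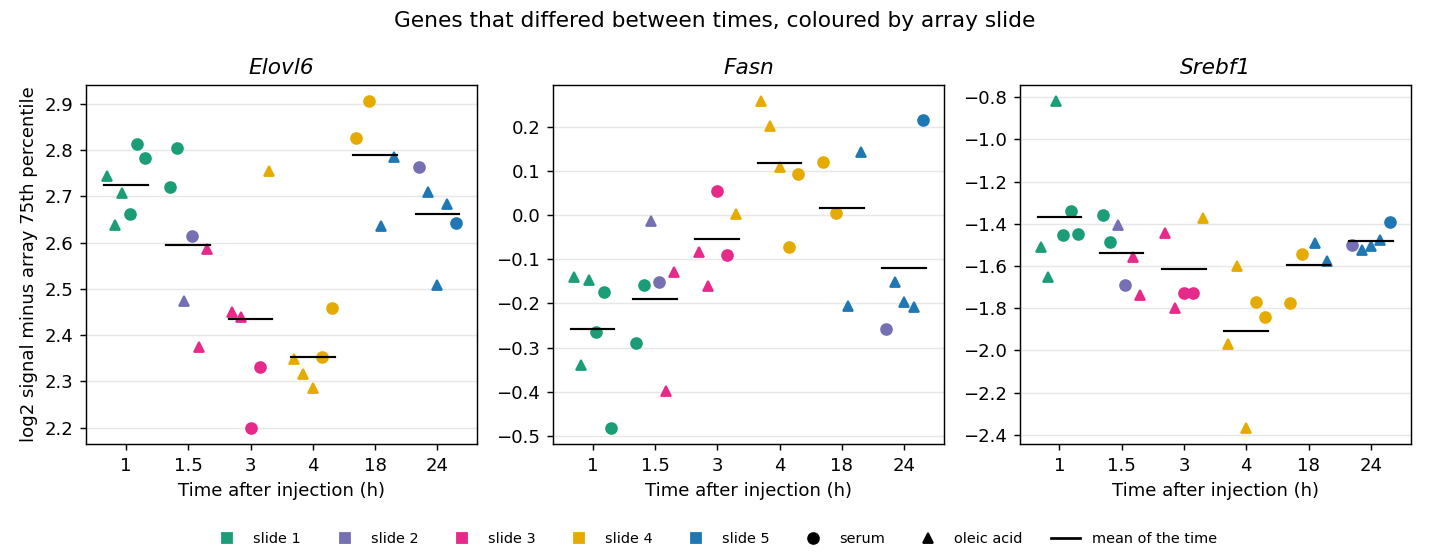
Levels of Elovl6, Fasn and Srebf1 (log2 signal minus the array's 75th percentile) in each mouse against hours after injection, coloured by array slide, circles for serum and triangles for oleic acid, black lines for the mean of the arrays at a time. On slide 4 the Elovl6 points at 4 h average 2.35 and those of serum mice at 18 h average 2.87.

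Acaca and Fasn, the enzymes that begin and carry out chain synthesis, were both listed higher at 3 and 4 h than at 1 and 1.5 h, and Fasn passed. The Fasn level at 1 h was -0.27, -0.17 and -0.48 in serum mice and -0.14, -0.34 and -0.15 in oleic acid mice. At 4 h it was -0.07 and 0.09 in serum mice and 0.26, 0.20 and 0.11 in oleic acid mice. Every 4 h mouse lay above every 1 h mouse. Fasn rose by 0.25 ± 0.07 (1.19-fold) between 1 and 1.5 h and 3 and 4 h, limma adjusted p = 0.0211. The call was lost, with the direction kept, under normexp background correction (0.19, adjusted p = 0.0734), median scaling (0.20, 0.238), use of the deposited table (0.19, 0.0616), and slide as a fixed (0.34, 0.934) or random block (0.25, 0.297). It was lost too without the 4 arrays low in cerebellar signal (0.22, adjusted p = 0.13), and when serum 3 h replicate 1 or serum 4 h replicate 2 was left out, with adjusted p of at most 0.0663. At 24 h the 2 serum mice stood far apart, at 0.22 on slide 5 and -0.26 on slide 2, and the 3 oleic acid mice lay between them, from -0.21 to -0.15. The order of the group means ran from oleic acid 4 h (0.19 ± 0.07, SD, n = 3) to serum 1 h (-0.31 ± 0.16, SD, n = 3), and all 11 neighbouring groups overlapped.

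The Fasn treatment difference was largest at 4 h, 0.18 ± 0.14 (limma adjusted p = 0.996), where all arrays shared slide 4 and the 3 oleic acid mice lay above the 2 serum mice. At 24 h it was -0.16 ± 0.14, and -0.40 within slide 5, which held 1 serum mouse.

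Acaca varied with the slide of its array. Its level was 3.67 ± 0.17 (SD, n = 8) on slide 4, against 3.34 ± 0.11 (n = 8), 3.17 ± 0.05 (n = 3), 3.20 ± 0.04 (n = 6) and 3.29 ± 0.10 (n = 6) on slides 1, 2, 3 and 5. Slide accounted for 75.1% of its variance over the 31 arrays, beside a median of 37.1% over all genes, and time for 57.4%, beside 33.7%. Slide 4 held every 4 h array, so these shares overlap. The lone 3 h array on slide 4 read 3.59, against 3.22 and 3.23 for its group mates on slide 3 and 3.16 and 3.22 for the serum mice. The 3 h difference between treatments was 0.16 ± 0.14, and 0.04 within slide 3. At 18 h the serum mice, on slide 4, read 3.67 and 3.58 and the oleic acid mice, on slide 5, 3.19 and 3.43. That difference of -0.32 ± 0.16 (1.25-fold, limma adjusted p = 0.671) cannot be told apart from the slide. Between 3 and 4 h and 1 and 1.5 h Acaca differed by 0.20 ± 0.07 (limma adjusted p = 0.0642), and it passed in 9 of the 39 alternatives run. Of these, 3 were among the 22 fits that each left out 1 array (without oleic acid 1 h replicate 3, serum 4 h replicate 1 or oleic acid 4 h replicate 2). In serum mice the test of time gave 0.0565. Its group means ran from serum 4 h (3.75) to oleic acid 1.5 h (3.17), and 10 of 11 neighbours overlapped, all but serum 18 h above oleic acid 1 h.

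The 4 Acaca probes did not move together. The brightest, which stands for the gene, lies at chr11:84215093-84215152 (mm9, plus strand), and a second starts 1 base further on and correlated with it at r = 0.96 over the 31 arrays. The other pair lie upstream in the gene, at chr11:84211638-84211697 and chr11:84009021-84009080, and correlated with the brightest at r = -0.55 and -0.28. The first of these was above background on 30 arrays and the other 3 probes on 31. On slide 4 the upstream pair averaged -3.82 and -2.70, inside the range of their means on the other slides (-3.93 to -3.18 and -2.78 to -2.57), while the brightest pair had their highest means there, 3.67 and 3.56. Between 3 and 4 h and 1 and 1.5 h the 4 probes differed by 0.20 and 0.16 (brightest pair) and 0.09 and 0.15 (upstream pair), all positive, and 0 of 4 passed in a limma fit of 35499 probes (adjusted p from 0.069 to 0.792, with an unadjusted p under 0.05 for the brightest pair). Acaca passed in that comparison when the mean of its probes stood for the gene (0.15 ± 0.05, limma adjusted p = 0.0464). For time in serum mice the second probe passed in the fit of probes (limma F-test, adjusted p = 0.0465), and the brightest did not (0.0629). The correlations between probes share arrays and scaling and are descriptions.

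**Figure D4:**
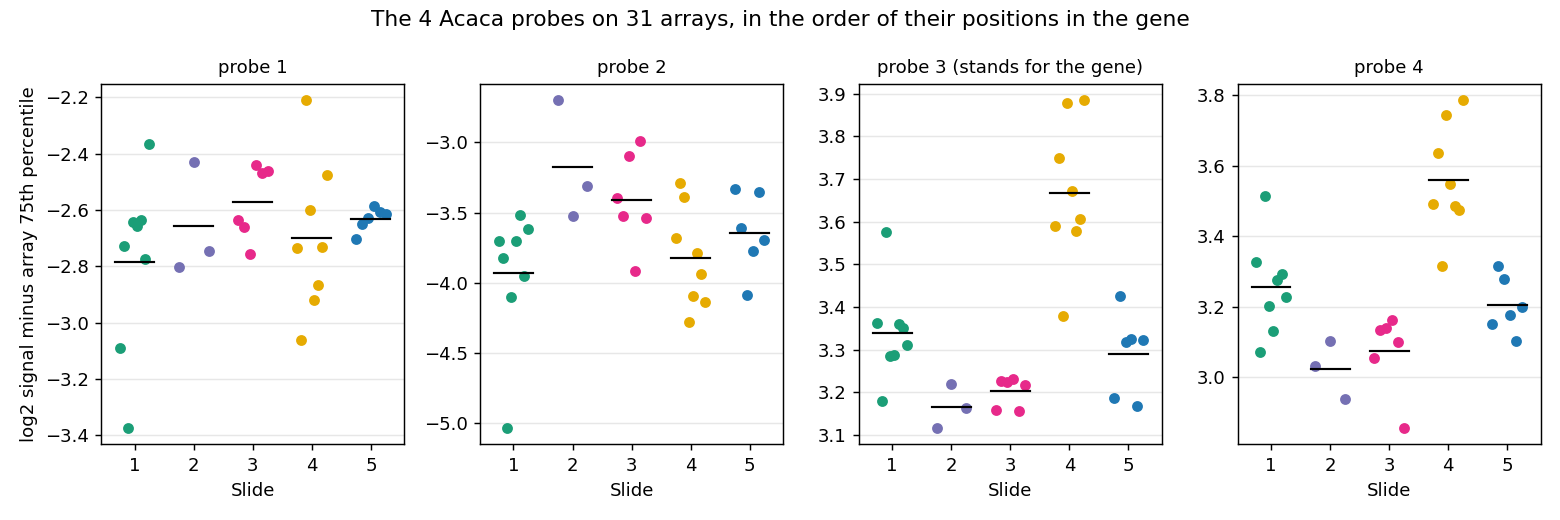
Levels of the 4 Acaca probes (log2 signal minus the array's 75th percentile, vertical, scale set per probe) on each of 31 arrays by slide, with black lines for slide means. Probes run from left to right in the order of their positions on the plus strand. The 2 probes at the right average 3.67 and 3.56 on slide 4, above each other slide, and those at the left do not.

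Elovl5, which lengthens polyunsaturated chains, varied least between groups. Its 12 group means ran from 2.06 (serum 3 h) to 2.30 (serum 4 h), all 11 neighbouring groups overlapped, and single mice lay between 1.96 and 2.40. The largest treatment difference was 0.11 ± 0.13 at 24 h (95% interval -0.15 to 0.37). In the 3 comparisons that pool times its differences lay within 0.02 of 0, with 95% intervals inside -0.15 to 0.13. The intervals were wider for serum mice at 18 h against 4 h (-0.31 to 0.26) and oleic acid mice at 24 h against 18 h (-0.28 to 0.25).

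Scd1 and Scd2, the stearoyl-CoA desaturases, did not pass in any comparison and differed in how tightly they were held. Scd2 stayed between 6.18 and 6.58 in all 31 mice, and its spread within groups was lower than that of all but 0.381% of genes. Scd1 ranged from 1.87 to 3.06, and its spread within groups lay at the 60.6th percentile of all genes. The widest Scd1 group was serum 4 h, with 3.03 and 1.87, and the oleic acid mice at 4 h read 2.16, 2.88 and 2.01, so that low and high values came from both treatments on slide 4. The lowest levels, in serum 4 h replicate 2 and oleic acid 4 h replicate 3, were those of 2 of the 4 arrays low in cerebellar signal. The other 2 of those arrays read 2.77 (serum 1 h replicate 1) and 2.57 (oleic acid 1.5 h replicate 2), inside the range of the rest. On the remaining arrays the lowest mean scores of cerebellar markers were those of serum 1.5 h replicate 3 (-1.32) and serum 18 h replicate 1 (-0.96). Their Scd1 levels were 2.66 and 2.06. The part of that tissue in the Scd1 level was not tested.

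For Scd2 the treatment difference was -0.15 ± 0.08 at 1.5 h, where serum mice read 6.48, 6.47 and 6.35 and oleic acid mice 6.30, 6.28 and 6.25. It was 0.19 ± 0.09 at 3 h, where serum mice read 6.18 and 6.26 and oleic acid mice 6.40, 6.34 and 6.49. The groups did not overlap at either time, and neither passed (limma adjusted p = 0.927 and 0.938). Within slides the differences were -0.05 on slide 2 at 1.5 h, with 1 mouse each, and 0.15 on slide 3 at 3 h, with 2 mice each. The largest Scd1 difference was 0.37 ± 0.27 at 18 h (95% interval -0.20 to 0.93), with oleic acid mice at 2.91 and 2.42 and serum mice at 2.06 and 2.53, which overlapped. Neighbouring group means overlapped in all 11 cases for Scd1 (serum 1 h, 2.92, to serum 18 h, 2.30) and in all 11 for Scd2 (oleic acid 4 h, 6.52, to serum 3 h, 6.22).

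Fads1 and Fads2, the delta-5 and delta-6 desaturases, did not pass in any comparison. Fads2 at 1 h read 0.94, 0.81 and 1.09 in serum mice and 1.15, 1.12 and 1.65 in oleic acid mice, all on slide 1. Each oleic acid mouse lay above each serum mouse, and the difference was 0.36 ± 0.14 (1.28-fold, 95% interval 0.07 to 0.65, limma adjusted p = 0.924). The highest of these, oleic acid replicate 3, came from the dimmest array, without which the difference was 0.19, and also gave the highest Fads1 (3.12) and Srebf1 (-0.82) levels of all 31 mice. Fads2 was lower at 18 and 24 h than at 1 and 1.5 h by a margin that did not pass (-0.22 ± 0.08, limma adjusted p = 0.0607), and its second probe, which correlated with the first at r = 0.60, gave -0.05. Its group means ran from oleic acid 1 h (1.31) to serum 24 h (0.88), and all 11 neighbours overlapped.

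Fads1 at 4 h read 2.56 and 2.57 in serum mice and 2.98, 2.76 and 2.89 in oleic acid mice. All 5 arrays shared slide 4 and the groups did not overlap, with a difference of 0.31 ± 0.17 (1.24-fold, 95% interval -0.03 to 0.66, limma adjusted p = 0.996). At 24 h and 18 h in oleic acid mice, both on slide 5, 0 of 9 members passed, against 0% of all genes (0 of 9 and 2.08% at an unadjusted p under 0.05). Fads1 was the only member whose 2 groups did not overlap there, lower at 24 h by 0.11 ± 0.17, against 22.8% of all genes. Its 12 group means ran from oleic acid 4 h (2.88) to serum 4 h (2.56), and all 11 neighbours overlapped.

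Fads1 was the only member whose level passed as related to a cell type list. Over the 31 mice it correlated with the mean level of 5 endothelial markers (Cldn5, Pecam1, Tek, Slco1a4 and Abcb1a) at r = 0.62 and rho = 0.68, with adjusted permutation p of 0.0175 and 0.00585 over 117 relations between members and marker lists. This was the 1 relation of 117 that passed, and how many of all genes were related as strongly to these markers was not counted. Without the 2 mice farthest from the median of Fads1 r was 0.57. Within slides 1, 3, 4 and 5 r was 0.94, 0.69, 0.60 and 0.86, and 0.76 after group and slide means were removed. The endothelial score differed by 0.21 between oleic acid and serum mice at 4 h and by 0.61 between serum mice at 18 h and 4 h, where Fads1 groups lay apart with the same sign. It differed by -0.07 between oleic acid mice at 24 h and 18 h, where Fads1 groups also lay apart. The part of endothelial RNA in these Fads1 levels was not tested.

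**Figure D5:**
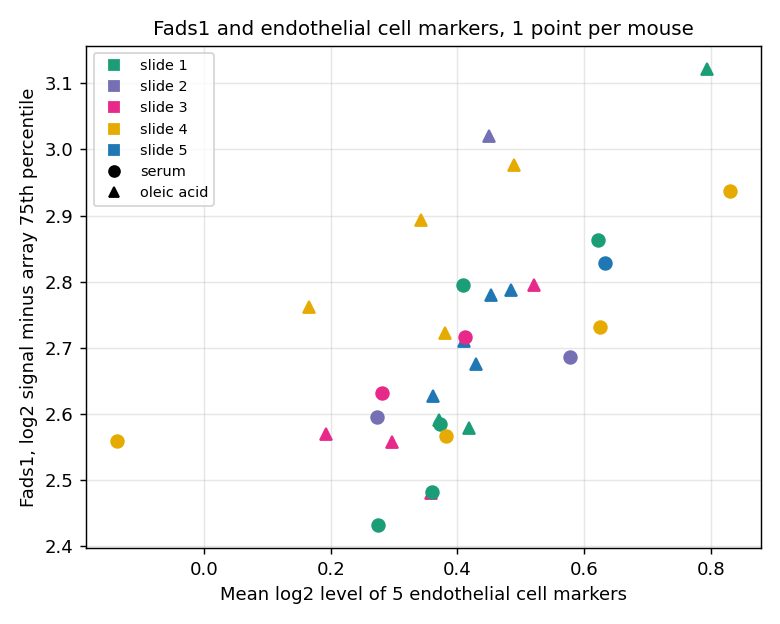
Fads1 level (vertical, log2 signal minus the array's 75th percentile) against the mean log2 level of 5 endothelial markers in 31 mice, coloured by slide, circles for serum and triangles for oleic acid. Pearson r is 0.62 over all mice and positive within slides 1, 3, 4 and 5.

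Srebf1 fell by 0.31 ± 0.10 (1.24-fold) between 1 and 1.5 h and 3 and 4 h, at the edge of the threshold (limma adjusted p = 0.0466). At 1 h serum mice read -1.45, -1.34 and -1.45 and oleic acid mice -1.51, -1.65 and -0.82, and at 4 h serum mice read -1.77 and -1.84 and oleic acid mice -1.97, -1.60 and -2.37. The serum groups at 1 h and 4 h did not overlap, and the oleic acid groups did. The call held in 7 of the 22 fits that each left out 1 array, with adjusted p from 0.0167 to 0.103. It was lost under normexp correction (-0.25, adjusted p = 0.0893), scaling to the median (-0.36, 0.0959), no filter (-0.31, 0.0742), a fit to these groups alone (-0.31, 0.0942), and without the arrays low in cerebellar signal (-0.26, 0.216) or with pituitary signal (-0.31, 0.0685). With slide as a fixed block it was -0.07 (adjusted p = 0.989), and as a random block -0.29 (0.463). The group means ran from oleic acid 1 h (-1.33 ± 0.45, SD, n = 3) to oleic acid 4 h (-1.98 ± 0.38, SD, n = 3), and 10 of 11 neighbours overlapped, all but serum 3 h above serum 4 h. Treatment differences lay between -0.17 and 0.19, and the smallest of the 6 standard errors was 0.18.

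Of 48 other genes of fatty acid synthesis, activation and its regulation, 46 were tested (all but Elovl3 and Mecr), and 0 passed between oleic acid and serum at any time or in the mean. The smallest unadjusted p at 1 h was that of Elovl7, an elongase of very long chains, at -0.85 ± 0.29 (limma adjusted p = 0.898), and in the mean over times that of Elovl1, another elongase, at -0.18 ± 0.06 (adjusted p = 0.998). In the mean 13 of the 46 were higher and 33 lower, with a median of -0.04, beside -0.0055 over all genes. Between times a few passed, and not all of them are named here. From 1 and 1.5 h to 3 and 4 h it was 2 of 46, against 9.49% of all genes. At 18 and 24 h it was 5 against 3 and 4 h (12.7% of all genes) and 4 against 1 and 1.5 h (11.2%). For time in serum mice it was 2 (10.5%), and for time in oleic acid mice 2 (7.06%). Acacb, the carboxylase of the mitochondrial surface, rose by 0.34 ± 0.11 from 1 and 1.5 h to 3 and 4 h and fell by 0.40 ± 0.12 from there to 18 and 24 h (limma adjusted p = 0.0483 and 0.0257). Mbtps2, a protease that releases SREBPs, was the other of 2 to rise in the first interval (0.22 ± 0.07, adjusted p = 0.0485). At 18 and 24 h against 3 and 4 h, 5 passed: Acacb, the desaturase gene Scd3 (-0.31 ± 0.09) and the acyl-CoA synthetase genes Acsl3 (-0.34 ± 0.10) and Acsl6 (-0.20 ± 0.05) fell, and Nr1h3, the gene of the oxysterol receptor LXR alpha, rose (0.37 ± 0.09). At 18 and 24 h against 1 and 1.5 h, Nr1h3 (0.34 ± 0.08) and Acsbg1 (0.18 ± 0.06) rose and Acsl6 (-0.20 ± 0.05) fell. Time in serum mice passed for Acss2, and time in oleic acid mice for Acacb and Acsl6. With slide as a fixed block Oxsm, of mitochondrial fatty acid synthesis, passed between oleic acid and serum at 1.5 h, and with slide as a random block 0 of the 46 passed there. Under either block 0 of the 46 passed between times, and without the arrays low in cerebellar signal Acacb passed in both intervals, and Acsl6 and Nr1h3 passed at 18 and 24 h against both earlier periods.

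Some cell type markers differed between the same times, and no list was tested as a whole. From 1 and 1.5 h to 3 and 4 h, 9 of 10 oligodendrocyte markers were listed higher, with a median of 0.15, and 1 passed, against 9.49% of all genes. From there to 18 and 24 h, 8 of 10 were listed lower, with a median of -0.14, and 3 passed, against 12.7% of all genes. In the same interval 6 of 6 neuron markers (median -0.19, 1 passed) and 6 of 7 astrocyte markers (median -0.10, 0 passed) were listed lower. The 5 microglia and 7 cerebellar markers were all listed higher. Of 5 endothelial markers 3 were listed lower in the first interval and 2 passed, against 9.49% of all genes. In the second 4 were listed higher and 2 passed, Slco1a4 (0.40) and Tek (0.56), against 12.7%. The oligodendrocyte score ranged from 3.98 to 4.52 over the mice and the endothelial score from -0.14 to 0.83. Elovl6 moved opposite to the oligodendrocyte, neuron and astrocyte medians in both intervals, and with the microglia, endothelial and cerebellar medians. In the first interval the astrocyte median was only 0.02, and 3 neuron markers were listed higher and 3 lower (median 0.05). The cerebellar median was -0.13 in the first interval, with 6 of 7 markers lower, and 0.56 in the second. The part of any cell type in the levels of Elovl6, Fasn and Srebf1 was not tested. Of 3 erythroid markers 3 were listed higher in the first interval and 2 passed, against 9.49% of all genes. In mean score, erythroid, liver and lung markers differed between treatments by -1.43, -2.47 and -3.31 at 1 h and by 0.02, 1.87 and 2.13 at 4 h, and cerebellar markers by 1.81 at 18 h, with no marker past the test in these comparisons, and no list's score passed as related to a member other than the Fads1 relation above.

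Pairs of the 9 genes were compared over the mice, and the share of all gene pairs that would pass was not counted. Slide accounted for a median of 37.1% of the variance over all genes. Of 36 pairs, 7 passed by Pearson's r over the 31 mice with a permutation test adjusted over the 36 (6 positive, 1 negative), 3 of them with the same sign within every slide of at least 6 arrays, and 1 passed by Spearman's rho. That pair was Scd2 and Acaca (r = 0.64, adjusted p = 0.00234, rho = 0.71, adjusted p = 0.00108), with r of 0.05 after group and slide means were removed and -0.27 within slide 4. Scd1 and Acaca gave r = -0.68 (adjusted p = 0.00234) but rho = -0.31 (adjusted p = 0.321), r = -0.46 without the 2 mice farthest from the Scd1 median, and 0.11, 0.26, -0.83 and -0.75 within slides 1, 3, 4 and 5. Fads1 and Fads2 gave r = 0.46 (adjusted p = 0.0475, rho = 0.26) over all mice, 0.27 without the dimmest array, and 0.82 after group and slide means were removed. The pairs Scd1 and Srebf1, Fasn and Acaca, Elovl6 and Srebf1, and Scd2 and Elovl5 gave r of 0.55, 0.54, 0.53 and 0.47.

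The genes whose levels ran most like each member over the 31 arrays were named by Pearson's r, the highest 3 for each, as a description of arrays that share slides and scaling. Acaca was nearest to Zpr1, Paf1 and Bag1, at 0.96, 0.94 and 0.94. Elovl6 was nearest to Spice1, Pnp and Ctnnd1, at 0.87, 0.86 and 0.85, and these fell to 0.22, 0.24 and 0.56 once group and slide means were removed. Fads1 was nearest to Xpo6, Hapln4 and Dpp9, at 0.89 to 0.88, and kept 0.86, 0.88 and 0.90 after that step. Scd1 was nearest to Tmem243 (0.85), Slc35e3 and H3f3a, Scd2 to Wbp1l (0.83), Fgf12 and Cs, and Fads2 to Cilk1 (0.80), Rhob and Kcnh1. Fasn was nearest to Rffl (0.78), Stimate and Apc2, Elovl5 to Zfp946 (0.83), Slc12a2 and Slc5a7, and Srebf1 to Supt20 (0.80), Id4 and Tcf3.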

How the data were processed

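Per the submitters' processing notes the arrays were extracted with Agilent Feature Extraction 10.5.1.1. The deposited array files hold a processed Cy3 intensity per spot and, per the file headers, flags scored 0 or 1 that mark non-uniform spots, saturated spots and spots well above background. The deposited table of values is in log2 units; its columns correlated with the log2 mean spot intensity at 0.998 or more and had medians of 6.13, and its making is not given in the sources used here. Probe coordinates are those of the array files (mm9).

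Processed intensities were log2-transformed and the array's 75th percentile of non-control spots (306 to 813) was subtracted. A probe was kept where 1 or more of the 12 groups had it well above background throughout and all 31 arrays measured it (35499 of 55681), and the brightest stood for each gene (25205). The number of arrays limits precision; 54.3% to 76.3% of spots were above background and 0 were saturated. Symbols of 3025 probes were updated through RefSeq accessions. A model of 12 group means was fitted with limma 3.58.1 in R 4.3.3 (19 residual degrees of freedom), and Benjamini-Hochberg adjusted p-values under 0.05 over all genes counted as passing. Limma's p-values measure the spread between mice of a group, which includes slides where a group lay on more than 1. Permutation p-values come from shuffles of all 31 arrays across groups and slides. Permutation tests of correlations were two-sided, with 100000 resamples in scipy 1.17.1; the fit was tested on simulated data.

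The 9 genes, the lists and the alternatives were chosen with earlier results of these data known. The naming rule took all 9 genes, pathway genes that passed (up to 6 a comparison, otherwise those with the smallest p, of which 2 are shown), the 3 genes most like each member, and the markers; some genes of the pathway list are not reported here. The alternatives covered background correction, scaling, the deposited log2 table, filters, probes, slide and replicate blocks, weights, variance models, fits to fewer groups, and left-out arrays. Omission of the dimmest array and the swaps of Acaca and Fads2 probes were added after the data were seen. Mice of the same time and number deviated together (r over 0.1) in 3 of 14 pairs, so numbers were not taken as pairs.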

Additional observations from a re-analysis of the deposited data

Results flagged for a closer look

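For 4 genes, oleic acid and serum mice lay apart at more than 1 time and in opposite directions. Scd2 differed by -0.153 at 1.5 h and 0.186 at 3 h, and Fads2 by 0.356 at 1 h and -0.0406 at 18 h. Acaca differed by 0.161 at 3 h and -0.319 at 18 h. Elovl6 differed by -0.234 at 1.5 h, 0.282 at 3 h, -0.0894 at 4 h and -0.154 at 18 h. Over all genes, groups did not overlap for 9.9% at 1 h, 10.6% at 1.5 h and 17.7% at 3 h. The shares were 18.1% at 4 h and 52.5% at 18 h. How many of all genes lay apart in opposite directions was not counted. The variation of the difference with time was tested by limma's F-test, which gave an adjusted p of 0.837 for each of the 4 genes. At 18 h the treatments lay on different slides, and at 3 h 1 oleic acid array lay on another slide than the rest; within slide 3 the 3 h differences were 0.146 for Scd2, 0.0405 for Acaca and 0.179 for Elovl6. With each array of the groups left out in turn, the Fads2 difference at 1 h ran from 0.186 (without oleic acid 1 h replicate 3) to 0.447. That of Scd2 ran from -0.196 to -0.128 at 1.5 h and from 0.145 to 0.227 at 3 h. That of Elovl6 ran from -0.288 to -0.182 at 1.5 h and from 0.179 to 0.348 at 3 h.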

How the results depend on the processing

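Between oleic acid and serum, 0 of 9 members passed under every alternative run, except that array weights, whose fit did not converge, gave 1 at 1.5 h (Elovl6). The replicate block left 0 of 9 at each time and in the mean, and changed no call. Of 1683 such differences under the alternatives 145 changed sign, the largest of these being 0.366 as reported, and none of them was called. Between times 74 of 1404 changed sign, none of a called value. The counts of members between times moved as follows, and the cause was not tested. For 18 and 24 h minus 1 and 1.5 h, 0 became 1 (Fads2) under normexp, quantile normalization and the deposited table, 3 under array weights, and 0 to 1 with 1 array left out (Fads2 without oleic acid 1 h replicate 2 or serum 1.5 h replicate 3, Fasn without oleic acid 1.5 h replicate 1 or serum 24 h replicate 2). For 3 and 4 h minus 1 and 1.5 h, 3 became 1 under median scaling and without the arrays low in cerebellar signal, 0 with slide as a fixed or random block, and 1 to 4 with 1 array left out (Acaca joined without oleic acid 1 h replicate 3, serum 4 h replicate 1 or oleic acid 4 h replicate 2, and Scd1 without serum 4 h replicate 1); serum 3 h replicate 1 and serum 4 h replicate 2 each left Elovl6 alone. For 18 and 24 h minus 3 and 4 h, 1 became 0 with slide as a fixed block. For serum 18 h minus 4 h, 0 became 1 (Elovl6) with slide as a fixed or random block. Time in serum mice, 1 as reported, gave 2 under normexp, the deposited table, array weights, trend and robust options and without the dimmest array, 0 under median scaling, both slide blocks and a fit to these groups only, and 0 to 2 with 1 array left out (0 without serum 3 h replicate 1, and Elovl6 and Scd1 without serum 4 h replicate 1). Time in oleic acid mice, 0 as reported, gave 1 under quantile normalization, the deposited table and trend and robust options, 2 under array weights, and 0 to 1 with 1 array left out (Elovl6 without oleic acid 3 h replicate 3, Acaca without oleic acid 4 h replicate 2). Groups of 2 or 3 mice limit what could be detected.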
